A study of Homo sapiens with 7 samples.

Results

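The cells described are the sgRosa controls of a CRISPR study in MOLM13, a human cell line grown from an acute myeloid leukemia of monocytic type. They are 3 of the 7 libraries of the series, chosen by their label alone, as the libraries that received the non-targeting guide sgRosa. The other 4 libraries received 1 of 2 guides against ZFP36L2 and are not compared here. The control cells were kept in RPMI-1640 with fetal bovine serum, transduced with sgRosa and taken for RNA 6 days later, and every level below is therefore a level in transduced, guide-bearing cells. Transcripts with a poly(A) tail were selected and read from 1 end in 50 cycles after a strand-keeping library preparation. The labels do not say whether the 3 libraries came from separate cultures, so the spread between them may be partly technical. The deposited tables list 11581 genes, of which 11408 have a value in each library.

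MOLM13 cells carry the MLL-AF9 fusion, in which the start of the histone methyltransferase KMT2A (MLL) is joined to the end of MLLT3 (AF9), and an internal tandem duplication in the receptor FLT3. In leukemia of this kind the fusion protein draws the methyltransferase DOT1L and elongation factors to its target genes, and the HOXA genes with their partner MEIS1 are the best known of these targets. Cells with the fusion are usually arrested between the granulocyte-monocyte progenitor and the mature monocyte. The progenitor makes the enzymes of primary granules, and most mature monocytes carry CD14 on their surface.

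2 scales are used. CPM, the reads of a gene over all reads of its library, scaled to the same sum in each, compare a gene between libraries and show where the reads went. Reads per kilobase of the gene's joined exons, scaled to the same sum in each library (TPM), compare genes with each other. Values are the mean ± SD of the 3 libraries unless each library is given, and there is 1 group of samples, so no test was made. A gene under 1 CPM is described as near zero. Which library is highest or lowest for a gene, and how steady the gene is, hold for this scaling to library totals. The authors' own scale sets replicate 2 higher, as the last section describes.

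The libraries held 16907955, 25164359 and 22631858 reads in listed genes for replicates 1, 2 and 3. 3 reads, the upper limit that a count of 0 allows, stood for 0.177, 0.119 and 0.133 CPM, and this covers counting error only. No pair of libraries agreed within sampling noise: the chi-square statistic of their counts was 37.3 to 124 per degree of freedom. The deposited tables cover all 7 libraries, so a gene near zero in the controls may be listed for its level in other libraries, and a gene outside the tables was not analysed here.

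Most listed genes had low to middling levels, and few took many reads. The median gene had 38.3 CPM. Between 10 and 100 CPM lay 6071 genes, which together took 26.1% of the reads, and between 100 and 1000 CPM lay 2612 genes with 60.2%. At 1000 CPM or more there were 59 genes with 12.6% of the reads. Of all genes, 76.6% had 10 CPM or more and 23.4% had 100 or more. Counts of list members at these levels are to be read against these shares. At the other end, 313 genes had a mean under 1 CPM, 221 of them in each of the 3 libraries. The 10 most read genes took 4.36%, 4.15% and 4.63% of the reads, and 1058 genes were needed to reach 50%. No listed gene dominated any library: PABPC1, the most read of them, took 0.604%, 1.04% and 0.718%. None of the genes at 1000 CPM or more lies in the mitochondrial genome. Shares and ranks are over listed genes, and mitochondrial mRNAs outside the tables were not measured here.

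The most read listed mRNAs belonged to protein synthesis, to the contents of myeloid granules and to the cytoskeleton. PABPC1, the protein that coats poly(A) tails and promotes translation, had 6043, 10374 and 7177 CPM. LYZ, the lysozyme that breaks bacterial cell walls, had 7349, 3080 and 5324 CPM. Replicate 2 was thus the highest library for PABPC1 and the lowest for LYZ, and LYZ led the order in replicate 1 while PABPC1 led in the other two. SRGN, the proteoglycan that holds proteases inside granules, was steadier at 5269, 4351 and 4417 CPM. EEF2, the factor that moves the ribosome along the mRNA, had 4252, 3156 and 5723 CPM, and RPL8, a protein of the large ribosomal subunit, had 3765, 3549 and 5232 CPM. The actin-bundling protein of blood cells, LCP1, had 4063, 4288 and 3817 CPM. TPT1, a growth-linked protein that binds tubulin, had 3798, 4293 and 3978 CPM. The SDs of LCP1 and TPT1, 236 and 251 CPM, were smaller than those of the 5 genes before them. The glycolytic enzyme ENO1 (3292 ± 842 CPM), the chaperone HSP90AB1 (3181 ± 203) and the actin ACTB (2917 ± 465) completed the 10 leading genes.

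**Figure D1:**
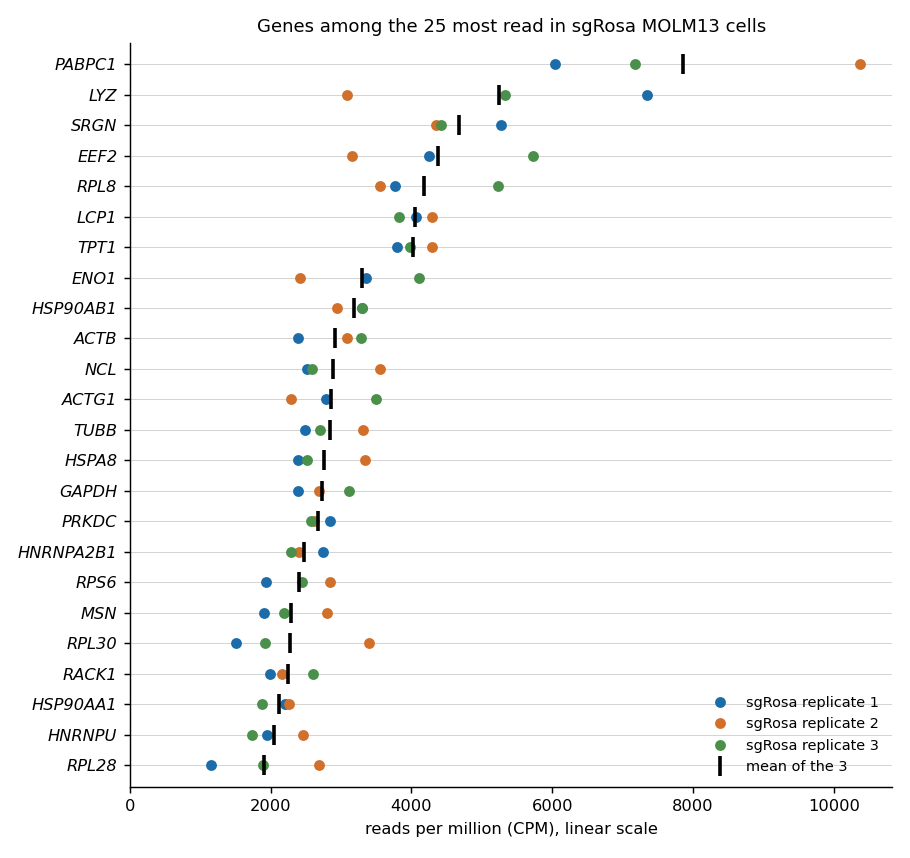
CPM (linear axis from 0) of genes among the 25 most read in each of the 3 sgRosa libraries, with the mean as a black bar. PABPC1 spans 6043 to 10374 and LYZ 3080 to 7349, while LCP1 and PRKDC have their 3 points close together.

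Among places 11 to 25 were further genes of the same kinds. NCL, the major nucleolar protein of ribosome assembly, had 2882 ± 576 CPM. The cytoskeletal genes ACTG1, TUBB and MSN had 2852 ± 609, 2837 ± 427 and 2295 ± 455 CPM. The chaperones HSPA8 and HSP90AA1 had 2751 ± 516 and 2119 ± 207 CPM, and the ribosome-bound scaffold RACK1 had 2247 ± 313. PRKDC, the catalytic subunit of the DNA-dependent protein kinase that joins DNA breaks, had 2678 ± 147 CPM but only 761 TPM, since its mRNA is long. HNRNPA2B1 (2475 ± 232) and HNRNPU (2046 ± 372) bind nuclear RNA. GAPDH, of glycolysis, had 2726 ± 367 CPM, and the ribosomal protein genes RPS6, RPL30 and RPL28 had 2408 ± 458, 2275 ± 995 and 1907 ± 762 CPM.

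Per length the order changed and granule proteins moved up. SRGN led with 16792 ± 1810 TPM, followed by LYZ with 12959 ± 5105, RPL8 with 8446 ± 1571, PABPC1 with 7290 ± 2331 and PRTN3, a neutrophil serine protease, with 7108 ± 3048. SRGN and LYZ cannot be put in order, since their difference is smaller than the SD of LYZ. FTL, the light chain of the iron store ferritin, had 6400 ± 888. Of the 25 most read genes, 17 were also among the 25 highest by TPM. With the longest principal transcript as the length in place of all joined exons, 15 were, and RPL8 took the lead with 10309 TPM before RPL30 with 10283 and SRGN with 9988. By the deposited FPKM, which divide by the whole gene with its introns, only 11 were.

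The protein synthesis genes formed the largest block of reads. All 79 cytosolic ribosomal protein genes of the list were in the tables, and together they took 4.76%, 4.49% and 5.44% of the reads. Their median level was 597 TPM, at the 98.2 percentile of all genes. The 35 translation factor genes measured took another 3.16 ± 0.320%, and all 35 had at least 10 CPM. After PABPC1, EEF2 and TPT1 the list was led by EIF4G2, an initiation factor, with 1840 ± 279 CPM. EEF1A1, which brings aminoacyl-tRNA to the ribosome, had 1143, 1177 and 1181 CPM. Of 30 nucleolar and ribosome assembly genes, 24 had 100 CPM or more, with NCL, the RNA helicase DDX21 (923 ± 78.0) and the box C/D protein NOP56 (635 ± 61.6) at the head.

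Ribosomal protein levels were far from equal, although each ribosome holds 1 copy of nearly every such protein. They ran from 4182 ± 916 CPM for RPL8 to 1.95, 0.676 and 1.99 CPM for RPS27. Besides RPS27, low values were those of RPS10 (4.47), RPL41 (5.15) and RPS26 (6.53 CPM). The level moved with the number of pseudogenes named after the gene in GENCODE 29. The median was 604 CPM for the 32 genes with 0 to 5 such copies, 531 for the 23 genes with 6 to 15, and 173 for the 24 genes with over 15. Genes whose exons overlap another gene on the same strand had a median of 372 CPM (36 genes) against 420 (43 genes). How reads that fit several places were counted is not given in the sources used here, and the part of such reads in these low values was not tested. The same limit applies to ALDOA, the main aldolase of glycolysis, listed at 1.36, 2.38 and 2.56 CPM, and to EIF4A1, the initiation helicase, at 10.3 CPM. Both are named because their values were seen to be low. The limit also covers the summed share of the ribosomal protein genes. It covers as well the levels given for EEF1A1, GAPDH and ACTG1, which have 39, 62 and 20 named pseudogenes. RPL39 and PGAM1, described below by their spread, have 15 and 13 and fall under the same limit.

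Many ribosomal protein and translation factor mRNAs start with a run of pyrimidines at the cap, through which their translation answers to growth signals. The starts of 5 of the abundant genes of this class are set beside a sixth, RPL3, that lacks the run in the window searched. Each is 30 bases before and 20 after the RefSeq start on the gene's strand, from GRCh38.p14, with the run in capitals.
EEF2, chr19:3985444-3985493, minus strand: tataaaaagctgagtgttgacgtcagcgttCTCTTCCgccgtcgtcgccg
TPT1, chr13:45341164-45341213, minus strand: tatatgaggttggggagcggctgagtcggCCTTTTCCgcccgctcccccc
RPS6, chr9:19380217-19380266, minus strand: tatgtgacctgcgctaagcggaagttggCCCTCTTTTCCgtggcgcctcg
RPL28, chr19:55385902-55385951, plus strand: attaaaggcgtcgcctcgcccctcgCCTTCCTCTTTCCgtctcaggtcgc
RPS3, chr11:75399488-75399537, plus strand: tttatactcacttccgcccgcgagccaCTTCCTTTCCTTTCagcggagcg
RPL3, chr22:39319604-39319653, minus strand: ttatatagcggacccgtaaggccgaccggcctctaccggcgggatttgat
The run searched was a C followed by at least 5 bases that are each C or T, lying wholly between 5 bases before and 15 after the annotated start, on the gene's strand only. It was present in 47 of the 53 ribosomal protein promoters matched by symbol (88.7%) and in 11 of 21 translation factor promoters (52.4%), against 14.0% of all 34796 promoters of the RefSeq table. By level, 38.7% of the 31 matched genes at 1000 CPM or more had it, and 18.3% of those between 100 and 1000 CPM. The share was 12.6% between 10 and 100 CPM, 12.6% between 1 and 10 CPM, and 14.1% for the 149 matched genes under 1 CPM. The highest band includes ribosomal protein and translation factor genes already counted, so it is not a separate result. A match describes these letters and is no measure of translation.

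The granule genes of the promyelocyte were among the most abundant listed mRNAs of these cells. All 15 listed genes were in the tables, 14 of them at 10 CPM or more, and their median level of 837 TPM lay at the 99.0 percentile of all genes. Together they took 1.60%, 1.04% and 1.51% of the reads, with replicate 2 the lowest. LYZ, which is also on the monocyte list, and SRGN made up most of this. Proteinase 3 (PRTN3) had 1621, 1170 and 2847 CPM, azurocidin (AZU1) 316, 216 and 500, and neutrophil elastase (ELANE) 206, 161 and 330. All 3 were lowest in replicate 2 and highest in replicate 3. They lie side by side on chromosome 19 (GRCh38), AZU1 from 825097 to 832018, PRTN3 from 840960 to 848175 and ELANE from 851014 to 856247, with CFD, the complement factor D gene, next to them from 859643 to 863630. CFD had 67.2, 34.9 and 125 CPM and showed the same order of libraries.

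Other granule genes lie elsewhere in the genome. The eosinophil-type ribonuclease RNASE2 had 271, 523 and 364 CPM, highest in replicate 2, and at 2254 ± 816 TPM it ranked 27 among all genes. The protease CTSG had 281, 336 and 411 CPM. Myeloperoxidase (MPO), the peroxidase that makes hypochlorous acid and a common marker of myeloid leukemia, had 88.4, 68.9 and 111 CPM, lowest in replicate 2, which is 110 ± 22.0 TPM. That was below PRTN3, CTSG and ELANE (981 ± 335 TPM) by more than their SDs. BPI, which kills Gram-negative bacteria, was the lowest of the list at 6.09, 6.84 and 5.48 CPM.

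The starts of the 4 abundant granule genes below do not hold the pyrimidine run within the window searched, and in CTSG a run of C and T starts only at the end of that window.
PRTN3, chr19:840969-841018, plus strand: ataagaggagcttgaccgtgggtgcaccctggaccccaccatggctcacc
RNASE2, chr14:20955457-20955506, plus strand: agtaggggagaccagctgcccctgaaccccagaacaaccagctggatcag
AZU1, chr19:827807-827856, plus strand: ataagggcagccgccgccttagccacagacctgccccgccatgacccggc
CTSG, chr14:24576231-24576280, minus strand: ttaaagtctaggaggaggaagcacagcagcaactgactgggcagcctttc
In the 300 bases around the start, the 9 granule genes matched had a median of 9 CG pairs, against 27 for the 6250 listed genes matched and 25 for the ribosomal protein genes. 2 of the 9 held the run.

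Monocyte genes were present in part. Of 35 listed, 33 were in the tables: 22 had at least 10 CPM and 5 were near zero in each library. The share at 10 CPM was smaller than the 76.6% of all genes. LYZ, given above with the granule genes, is on this list too and was its most read member, at 7349, 3080 and 5324 CPM. VCAN, the matrix proteoglycan of monocytes, had 304, 368 and 270 CPM. The chemokine receptor CCR2, which brings classical monocytes into tissue, had 324, 222 and 287. AIF1, an actin-binding protein of monocytes and macrophages, had 238, 259 and 226. SPI1 (PU.1), the transcription factor that both granulocytes and monocytes need, had 140, 146 and 214 CPM, and CD4 had 153, 147 and 172. CSF1R, the receptor for the monocyte growth factor M-CSF, was lower at 34.3, 32.4 and 47.1 CPM.

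CTSS, a lysosomal protease, had 140 ± 23.1 CPM, MNDA 123 ± 40.8, the receptor TLR2 115 ± 14.1 and MS4A7 89.1 ± 13.1. Other genes of the monocyte list were low or near zero. CD14, the co-receptor for bacterial lipopolysaccharide, had 1.6, 0.437 and 2.47 CPM, which is 3.43 ± 2.26 TPM, while its partner TLR4 had 56.7, 55.6 and 47.9 CPM. ITGAM (CD11b), the integrin chain gained as myeloid cells mature, had 13, 12.8 and 18.2 CPM. S100A9 and S100A8, which form calprotectin and are among the most abundant proteins of blood monocytes, had 15.7 ± 4.82 and 7.77 ± 0.777 CPM. FCGR3A (CD16) had 0.0591, 0 and 0.309 CPM, CD300E 0, 0 and 0.265, and S100A12 0.0591, 0 and 0.133, all within a few reads of 0. The lectin CLEC7A was at a like level, with 0.177, 0.159 and 0.133 CPM.

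Of the mature granulocyte list, 12 of 24 genes were in the tables. CSF3R, the receptor for G-CSF, had 151, 214 and 237 CPM, CYBA and CYBB, the membrane subunits of the phagocyte oxidase, had 184 ± 87.7 and 86.8 ± 13.8, and its regulator NCF4 had 98.4 ± 17.3. CEACAM3, a granulocyte receptor for bacteria, had 0 reads in each of the 3 libraries. The genes of secondary and tertiary granules LTF, CAMP, LCN2 and MMP8 were not analysed here, and MMP9 had 2.57 ± 0.512 CPM.

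**Figure D2:**
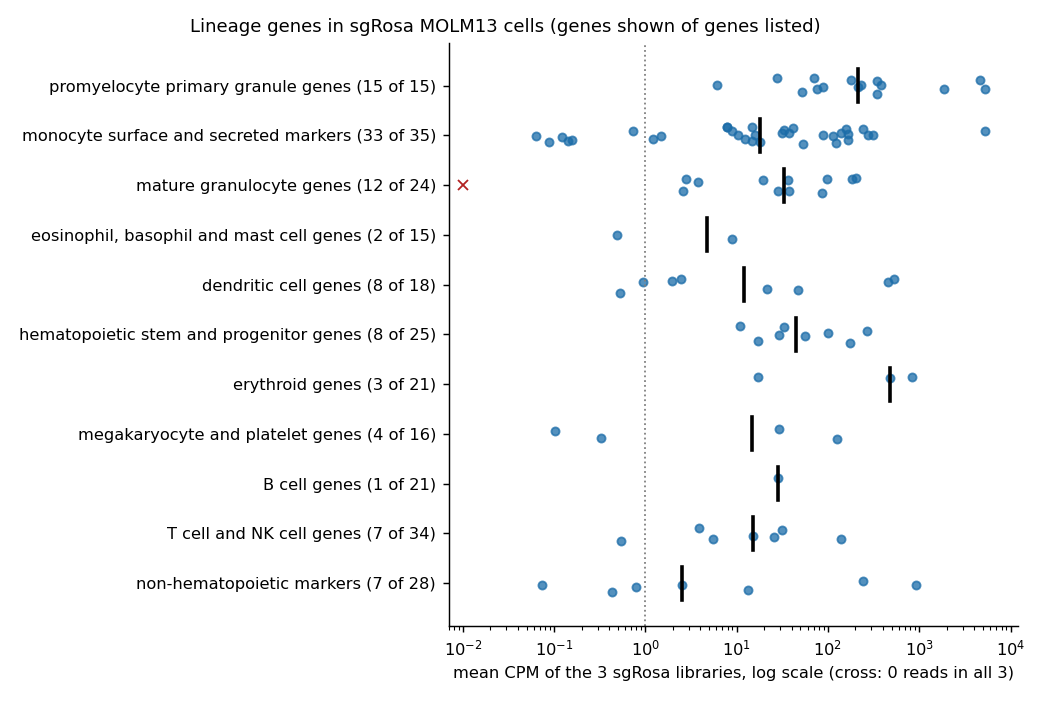
Mean CPM of each measured lineage gene (points, log axis) with the median of each list (black bar) and 1 CPM (dotted line). The granule list has its 15 genes between 6.14 and 5251 CPM, while the monocyte list reaches from 0.0639 to 5251.

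Few genes of other lineages were listed, and several of those present are shared with other cells. Only 3 of 21 erythroid genes were in the tables: the transferrin receptor TFRC, which every dividing cell uses (1097, 583 and 792 CPM), the carbonic anhydrase CA2 (593, 324 and 520) and the erythropoietin receptor EPOR (17.9, 14.0 and 20). The globin genes, GATA1 and KLF1 were not analysed here. Of 16 megakaryocyte genes there were 4, with FLI1 at 127 ± 21.3 CPM and VWF at 0, 0 and 0.309. Of 21 B cell genes there was 1, the immunoglobulin light chain constant gene IGKC, at 22.2, 34.2 and 28.5 CPM, which is 238 ± 56.6 TPM. The surface markers MS4A1 and CD79A were not analysed here.

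Among 34 T cell and NK cell genes 8 were listed, 7 with values per library. NCAM1 (CD56), an adhesion molecule of NK cells that part of monocytic leukemias also carry, had 123, 164 and 126 CPM. The granule protein NKG7 had 36.9, 16.5 and 41.6, the interleukin 7 receptor IL7R 25.7 ± 3.31, and CD3D 15.3, 15.7 and 14.7. Of the T cell receptor constant genes, TRDC had 5.56 ± 1.15 CPM, TRGC1 3.89 ± 1.67 and TRGC2 0.548 ± 0.497. TRAC, without values per library, had a group mean of 19.2 CPM. Of 18 dendritic cell genes 8 were listed, led by FLT3 and by the factor IRF8 (512, 367 and 483 CPM), which are shared with myeloid progenitors. ZBTB46, the factor specific to classical dendritic cells, had 0.949 ± 0.0754 CPM.

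Genes of stem and progenitor cells were represented by 8 of 25. They were the shared leukocyte phosphatase PTPRC (CD45, 266 ± 25.9 CPM), the adaptor LMO2 (182, 167 and 175), SOX4 (99.5 ± 5.18), CD38 (56.7 ± 10.2), LYL1, NFE2, MLLT3 and ANGPT1. CD34, KIT and MECOM, which mark the most immature cells, were not analysed here. Of 28 genes of tissues outside the blood, 7 were listed. VIM (925 ± 106 CPM), the intermediate filament of leukocytes as well as of fibroblasts, and PECAM1 (243 ± 48.5), an adhesion molecule also of myeloid cells, were high. DES, of muscle, was at 0, 0 and 0.221 CPM and PDGFRB, of fibroblasts and pericytes, at 0.430 ± 0.191.

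Genes of the MLL-AF9 program were expressed at middle to high levels. Of 48 listed genes 33 were in the tables, 29 had at least 10 CPM, 17 had at least 100 and none was near zero in all libraries. Among all genes 76.6% and 23.4% reached these 2 levels. MYB, the transcription factor that keeps progenitors dividing, had 699, 906 and 655 CPM (603 ± 130 TPM). MYC, the growth regulator, had 595, 657 and 758 CPM and was the highest of the list per length apart from LGALS1, at 977 ± 105 TPM. FLT3, the receptor tyrosine kinase for FLT3 ligand, on chromosome 13 from 28003274 to 28100592, had 578, 527 and 475 CPM (555 ± 64.2 TPM). The deposited values do not separate the duplicated allele from the other. CDK6, the cell cycle kinase, had 598, 642 and 481 CPM, and MEF2C, a transcription factor linked to this fusion, 463, 666 and 418. JMJD1C (444 ± 112), ZEB2 (313 ± 87.1), RUNX1 (282 ± 73.8), BCL2 (266 ± 25.6) and PBX3 (167 ± 49.6), a partner of HOX proteins, followed. MEF2C, JMJD1C, ZEB2, RUNX1 and PBX3 were each highest in replicate 2, and BCL2 was highest in replicate 1.

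The only HOX genes of the tables were those of the HOXA cluster on chromosome 7. HOXA9 was the highest, with 74.2, 77.7 and 68.7 CPM and 107 ± 10.4 TPM. The next 3 did not differ beyond their SDs: HOXA11 with 40.4 ± 4.0, HOXA7 with 37.9 ± 6.95 and HOXA10 with 37.6 ± 4.84 TPM. The gap from HOXA9 to these 3 was several times the SDs. HOXA5 (12.5 ± 1.33), HOXA13 (9.58 ± 2.01) and HOXA3 (3.54 ± 0.644) were lower. The exons of HOXA9, HOXA10 and HOXA3 overlap other annotated genes on the same strand, and the part of shared reads was not tested. MEIS1, the DNA-binding partner of HOXA9, had 49.4, 70.4 and 52.7 CPM, or 23.1 ± 5.35 TPM, and its relative MEIS2 had 10.4 ± 1.62 CPM. HOXA9 and MEIS1 ranked 2171 and 6746 by TPM among all 11408 genes, so neither was among the abundant mRNAs.

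**Figure D3:**
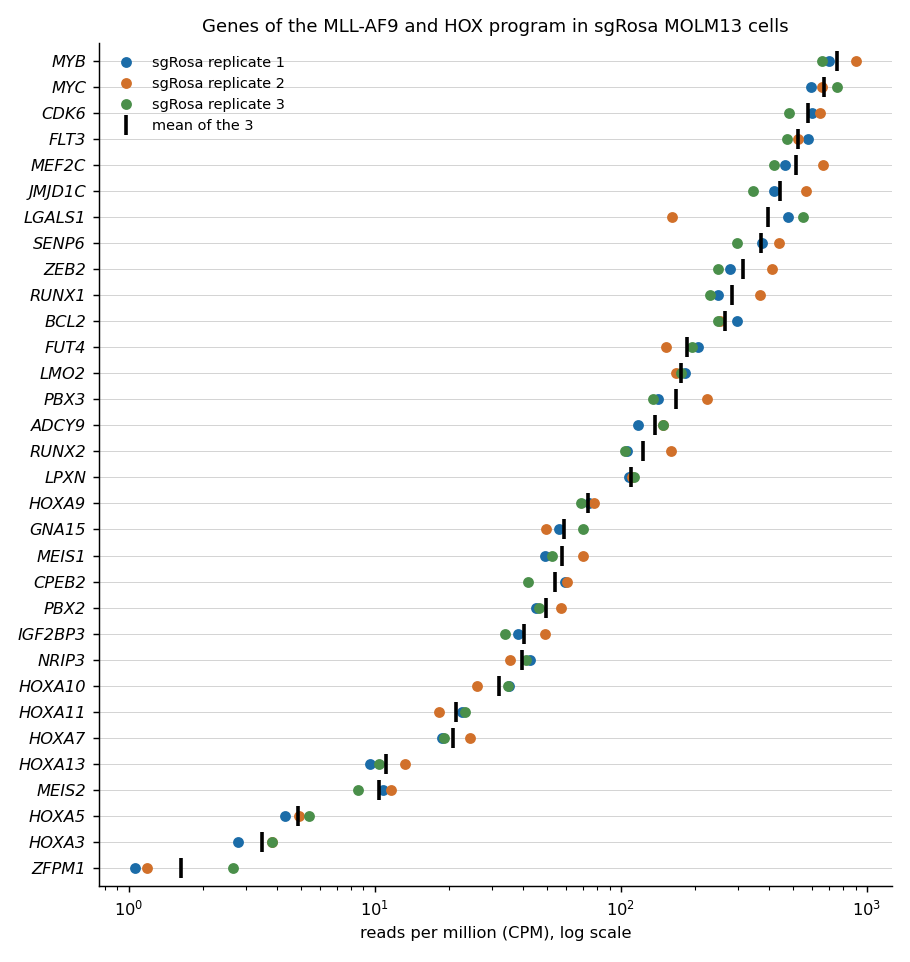
CPM (log axis) of measured genes of the MLL-AF9 and HOX list in each sgRosa library, with the mean as a black bar. LGALS1 has the widest relative spread among genes over 100 CPM, from 161 in replicate 2 to 549 in replicate 3, and HOXA9 stays between 68.7 and 77.7.

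LGALS1, the galectin of this list, had 478, 161 and 549 CPM and was the least steady of its genes over 100 CPM. LPXN, a focal adhesion adaptor, was the steadiest at 108, 111 and 113. At the low end of the list stood ZFPM1, a cofactor of GATA1, with 1.06, 1.19 and 2.65 CPM, and IGF2BP3, a fetal RNA-binding protein, was present at 40.5 ± 7.91 CPM.

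KMT2A and MLLT3, the genes that make up the fusion, were low per length. Their list, with the cofactors, had a median of 82.6 CPM, and its median TPM lay at the 65.0 percentile of all genes. KMT2A had 41.5, 73.4 and 47 CPM (7.60 ± 2.68 TPM) and MLLT3 had 18.5, 18.1 and 14.9 CPM (9.28 ± 1.31 TPM). A read from the fusion transcript counts for KMT2A or for MLLT3 according to where it lies, so these values do not separate the fusion from the intact genes. DOT1L, the H3K79 methyltransferase, had 133, 143 and 167 CPM, and MEN1 (menin), which tethers KMT2A to chromatin, had 62.6, 82.6 and 89.7. Of the 26 genes of the list with values in each library 25 had at least 10 CPM, against 76.6% of all genes. The acetyltransferase KAT6A (249 ± 30.8), ASH2L of the methyltransferase core (212 ± 13.6), HCFC1 (208 ± 34.4) and the elongation factor AFF1 (181 ± 41.3) led. ELL2, an elongation factor, was the exception at 1.44 ± 0.819, with ELL at 28.7 ± 9.35.

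Of 44 listed transcription factors of the granulocyte and monocyte lines, 38 were in the tables and 27 had at least 10 CPM, a smaller share than the 8742 of all 11408 genes at that level. Per length, CEBPA (402 ± 156 TPM), IRF8 (384 ± 55.2) and SPI1 (351 ± 75.5), the factors that set the granulocyte-monocyte fate, did not differ from each other beyond their SDs. CEBPA had 270, 132 and 330 CPM, lowest in replicate 2. GFI1, the repressor that favors granulocytes, was steady at 144, 131 and 154 CPM. ELF1 (612 ± 81.1) and IKZF1 (494 ± 62.3), of the lymphoid and myeloid lines, were also high. Of the other listed factors, CEBPD had 53.7 ± 24.2 CPM, JUNB 42.9 ± 16.3 and KLF6 29.7 ± 1.33. Lower in the list, CEBPE, needed for secondary granules, had 2.25, 1.19 and 2.56 CPM, CEBPB 6.15, 3.38 and 11.1, and EGR2 0.177, 0.238 and 0.398. GATA2, of stem and mast cells, had 8.91 ± 0.964 CPM. The AP-1 genes differed among themselves, with FOS at 108 ± 18.9 CPM against JUN at 3.92 ± 1.70 and FOSB at 1.18 ± 0.638.

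Of 35 cytokine and growth factor receptor genes 30 were in the tables, and 12 had 100 CPM or more, against 23.4% of all genes. The list is not confined to myeloid receptors, and IL7R and EPOR, given above, are among those measured. After TFRC and FLT3 the most read was IL6R, the interleukin 6 receptor, which was also one of the steadiest of all abundant genes at 368, 378 and 380 CPM. Its signaling partner IL6ST had 16.2 ± 3.37. The receptor chains for GM-CSF, CSF2RA and CSF2RB, had 39.8 ± 1.33 and 23.1 ± 2.64 CPM, and the interleukin 3 chain IL3RA (CD123) had 46.5, 44.1 and 50.7. CXCR4, the homing receptor for bone marrow, had 136, 119 and 142 CPM, and the TNF receptors TNFRSF1A and TNFRSF1B had 132 ± 23.5 and 138 ± 23.2. The interferon receptor chains IFNAR1 (120 ± 13), IFNAR2 (41.6 ± 6.75), IFNGR1 (123 ± 10.6) and IFNGR2 (65.3 ± 4.40) were all expressed.

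Of 37 surface antigens of leukemia, 31 were in the tables. SPN (CD43) had 821, 849 and 905 CPM and the integrin chain ITGB2 609, 432 and 835. Of targets of antibodies or cell therapies, CD33 had 106, 173 and 126 CPM, CD47 had 142 ± 26.2, CD70 had 51.5, 34.4 and 74.2, and LILRB4 had 133, 191 and 179, whereas CLEC12A had 2.43 ± 0.254 and HAVCR2 (TIM-3) 1.27 ± 0.357. These targets lie outside the naming rule and were chosen after their values were seen.

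The most read class I genes were far above the class II chains. B2M, the light chain of class I, had 1465, 1096 and 1244 CPM, and HLA-B had 818, 347 and 1028, lowest in replicate 2. HLA-E and HLA-C had 317 ± 41.0 and 262 ± 99.0 CPM. Other members of the class I pathway were lower, with HLA-F at 19.8 ± 7.61 CPM, the proteasome subunits PSMB10 and PSMB9 at 18.8 ± 9.36 and 14.5 ± 4.04, and HLA-G at 15, 2.90 and 10.6, a range that takes in the levels of the class II chain HLA-DRA. Class II chains were low: HLA-DRA had 5.86, 4.81 and 6.10 CPM, HLA-DRB1 0.651, 0.517 and 1.37, and HLA-DPA1 0.177, 0 and 0. Their activator CIITA had 4.75 ± 0.538 CPM. CD74, the invariant chain that accompanies class II, was at 394, 466 and 528 CPM. HLA genes are highly variable in sequence and similar to each other, and HLA-B and HLA-C overlap on the same strand in GENCODE 29, so reads may be lost or shared between them, and this was not tested.

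Interferon-stimulated genes were low as a group, with a median of 2.25 TPM, at the 6.92 percentile of all genes. Of 33 measured, 10 were near zero in each library and 10 had at least 10 CPM. High in the list were TRIM22 (130, 157 and 136 CPM), BST2 (94.7, 70.7 and 116) and XAF1 (57.0, 103 and 57.8). Among the 10 near zero, IFI44L had 0.237, 0.159 and 0.0442 CPM, IFI44 0.118, 0.0795 and 0.133, IFIT1 0.118, 0.238 and 0.486, and IFITM1 0.0591, 0 and 0.0884. The 3 libraries were alike in this, with summed levels of 677, 743 and 706 CPM.

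Cell cycle genes were high. Of 42 measured 40 had at least 10 CPM, against 76.6% of all genes, and their median of 177 TPM lay at the 90.1 percentile. The replication helicase subunit MCM4 led with 1313, 1189 and 1318 CPM. MKI67, the Ki-67 protein, had 676, 1467 and 707, with replicate 2 far above the others, and the topoisomerase TOP2A had 1024, 994 and 766. Among the D cyclins CCND3 had 213 TPM (304, 174 and 377 CPM), CCND2 had 22.5 TPM (36.7 ± 5.01 CPM) and CCND1 had 1.74 TPM (1.77, 2.78 and 1.15 CPM). CCNA1, a cyclin of germ cells that is also found in myeloid leukemia, had 204, 251 and 223 CPM. The cyclins were singled out after their values were seen. CDKN2A and CDKN2B, inhibitors on chromosome 9, were not analysed here.

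Of the BCL2 family, the survival genes MCL1 (334, 300 and 278 CPM) and BCL2 (296, 254 and 249) led. Per length MCL1 was higher, with 305 ± 32.3 against 99.1 ± 9.96 TPM. The death-promoting genes BID (111 ± 16.8) and BCL2L11 (BIM, 111 ± 3.0) followed in CPM, and BCL2A1 was low at 0.591, 1.55 and 1.63. The cyclin CCNG1 (258 ± 31.5), the ribonucleotide reductase subunit RRM2B (239 ± 64.0) and the ubiquitin ligase MDM2 (174, 175 and 144) had means above 100 CPM.

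ZFP36L2, the gene that the study edits in its other libraries, encodes a protein that binds AU-rich elements in mRNAs and promotes their decay. In these controls it had 369, 284 and 336 CPM (390 ± 43.3 TPM). Its relative ZFP36 had 79.4, 98.8 and 93.1 CPM (197 ± 25.8 TPM), and ZFP36L1 was near zero at 0.237, 0.755 and 0.265 CPM, a mean of 0.419 that is 0.251 without replicate 2. Of the 18 genes listed for proteins that bind AU-rich or related elements, 17 had at least 10 CPM, led by HNRNPD (AUF1, 787 ± 94.5), KHSRP (440 ± 48.7), CELF2 (438 ± 62.8) and KHDRBS1 (423 ± 48.4).

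Of 36 measured genes that are recurrently mutated in acute myeloid leukemia, 35 had at least 10 CPM, against 76.6% of all genes. The cohesin subunit RAD21 (1206, 905 and 924 CPM), the splicing factor SF3B1 (758, 740 and 647), FLT3 and the cohesin subunit SMC1A (481, 574 and 455) were the most read, and only GATA2 was below 10. All 62 chromatin enzymes of the list were measured. Of these, 61 had at least 10 CPM, with the acetyl-lysine reader BRD2 (441, 808 and 551), the DNA methyltransferase DNMT1 (582 ± 84.9), PRMT1 (512 ± 77.7) and HDAC2 (420 ± 58.3) in front.

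Housekeeping groups were abundant and differed in how closely the libraries matched. The 33 chaperone genes took 2.49 ± 0.0832% of reads. Behind HSP90AB1, HSPA8 and HSP90AA1 came the calcium-binding chaperone of the endoplasmic reticulum CALR (1486, 1558 and 1663 CPM). The 48 respiratory chain genes measured were less even: their sum was 9795, 6682 and 9525 CPM, with replicate 2 low, and ATP5F1B of the ATP synthase led with 1232, 864 and 1279. The iron and antioxidant genes showed a like order, with 6918, 5123 and 6934 CPM in all, led by FTL (1355, 1041 and 1469), TFRC and catalase (CAT, 638, 716 and 657). Of the glycolysis genes, ENO1, GAPDH, PKM (1756 ± 258) and LDHA (920, 1465 and 907) each exceeded 1000 CPM on average.

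Stress genes were uneven. HSPA5, the chaperone of the unfolded protein response, had 727, 526 and 658 CPM, its regulator XBP1 517, 344 and 452, and the tRNA synthetases GARS and AARS 342 ± 67.8 and 308 ± 48.9. NUPR1 was near zero in each library at 0.0591, 0.0397 and 0.177 CPM. Of the immediate early genes, FOSL2 (264, 241 and 278), SRF (111, 107 and 122) and FOS followed MYC, and the list's median was 14.7 CPM.

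Protein-coding genes took 99.0% of the reads. Among the others, the snoRNA host LRRC75A-AS1 had 811, 363 and 664 CPM, MALAT1, a nuclear RNA, had 326, 811 and 353, OIP5-AS1 had 408, 413 and 319, and SNHG6 had 356, 485 and 278. MALAT1 was thus far higher in replicate 2 than in the others. The mitochondrial pseudogene MTATP6P1, whose sequence resembles the mitochondrial genome, had 282, 1061 and 306 CPM. The 7 mitochondrial pseudogenes together took 0.0631%, 0.201% and 0.0782% of the reads.

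Genes of chromosomes 8 and 13 had higher levels than those of other chromosomes. Over the 406 genes of chromosome 8 with at least 1 CPM the median was 77.2 CPM, against 40 for all 11095 such genes. The ratio was 2.06, 1.87 and 1.87 in the 3 libraries, and 1.88 by TPM. Over the 202 genes of chromosome 13 the median was 65.3 CPM and the ratio 1.73, 1.66 and 1.43, or 1.53 by TPM. Chromosome 6 came next by its mean levels, with ratios of 1.23, 1.32 and 1.21, below both of these chromosomes in each library, and the lowest by its mean levels was chromosome 19 with 0.655, 0.623 and 0.833. Chromosome 7 was lower than it in replicate 3 (0.814) and by TPM (0.766 against 0.887). Chromosome 8 carries 9 of the 59 genes at 1000 CPM or more: PABPC1, RPL8, PRKDC, RPL30, EIF3E, EIF3H, MCM4, MTDH and RAD21. MYC lies on it too, from 127735434 to 127741434, and LCP1, TPT1 and FLT3 lie on chromosome 13.

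**Figure D4:**
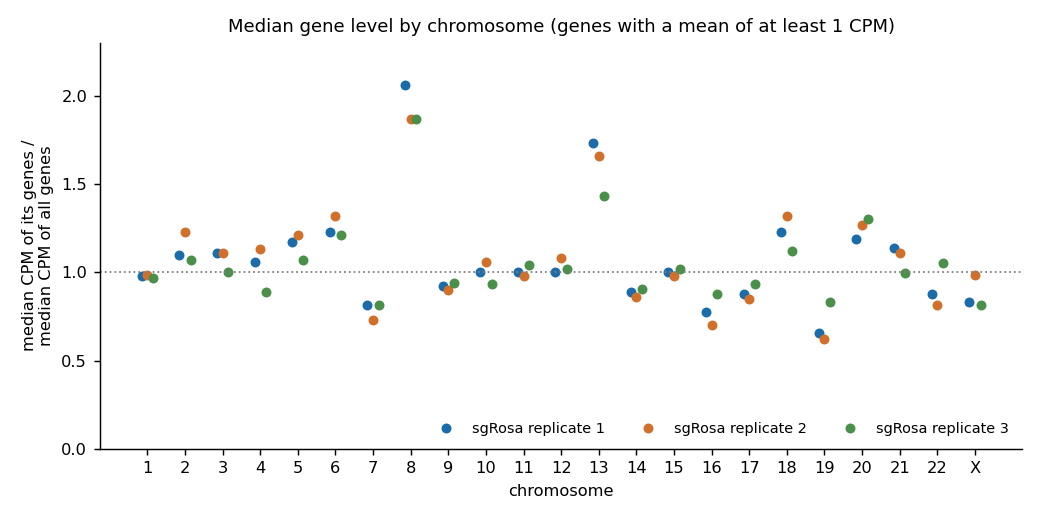
Median CPM of the genes of each chromosome divided by the median over all genes with at least 1 CPM, for each sgRosa library. Chromosome 8 stands at 1.87 to 2.06 and chromosome 13 at 1.43 to 1.73, above every other chromosome in the same library.

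Along chromosome 8, in steps of 20 Mb from its start, the medians were 51.7, 76.8, 141, 108, 94.0, 93.1, 58.2 and 46.4 CPM, so each exceeded the median of all genes but not by the same amount. Karyotypes described for MOLM13 include extra copies of chromosome 8 and, in part of the cells, of chromosome 13. Copy number was not measured here and its part in these levels was not tested. Which genes are listed also differs between chromosomes, and the comparison of chromosomes was added after the values were seen.

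The 3 control libraries differed by more than counting error. For the 8742 genes with a mean of at least 10 CPM the median coefficient of variation (CV, SD over mean) was 16.4%, with the middle 50% of genes between 10.9% and 24.3%. The CV expected from counting error had a median of 2.84%, and 97.6% of the genes exceeded their own expected value. With 3 libraries part of the genes would exceed it by counting alone, and that part was not worked out. The median CV was 17.2% between 10 and 100 CPM, 14.8% between 100 and 1000 and 17.2% from 1000 CPM on, where counting error gives 3.48%, 1.64% and 0.516%. Between 1 and 10 CPM it was 26.6%, against 10.7% from counting. In 192 genes the CV was above 50%, and in 478 it was below 5%.

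Replicates 1 and 3 were the closest pair. Across genes, which are not independent replicates, Pearson's r of log2(CPM + 1) was 0.987 for replicates 1 and 3, 0.973 for 1 and 2, and 0.966 for 2 and 3. Genes that differed over 2-fold numbered 20, 391 and 688 for these pairs. Replicate 2 was the library farthest from the mean for 44.3% of genes, replicate 3 for 32.1% and replicate 1 for 23.6%.

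Part of the spread followed the base composition of the transcripts. Where GC content was lowest, in 875 genes, the median deviation from the mean of the 3 libraries was 0.14, 0.08 and -0.22 on the log2 scale. Where it was highest, in another 875 genes, it was -0.03, -0.45 and 0.47. Replicates 2 and 3 thus parted in opposite directions at high GC content, and replicate 1 lay between them. By length the trend was smaller, from 0.05, -0.22 and 0.16 for the shortest transcripts to 0.00, 0.11 and -0.14 for the longest. GC-rich genes named above that were low in replicate 2 and high in replicate 3, such as PRTN3 (66.1% GC), CEBPA (65.9%) and HLA-B (59.0%), moved with this trend, whose part in their values was not tested.

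**Figure D5:**
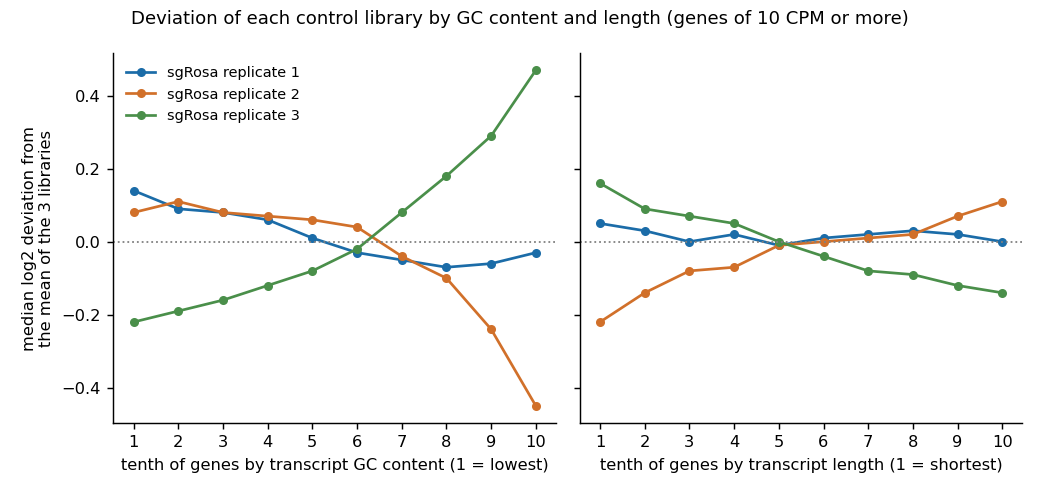
Median log2 deviation of each sgRosa library from the mean of the 3, in 10 bins of equal size by GC content (left) and length (right) of the longest principal transcript. At the highest GC content replicate 3 stands at 0.47 and replicate 2 at -0.45, and by length the lines stay between -0.22 and 0.16.

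The widest relative spreads came with replicate 2 at 1 end. Beyond counting error the highest CV belonged to AL162293.1 (5.44, 44.9 and 7.95 CPM), RPL39 (3.13, 23.5 and 5.21), the glycolytic mutase PGAM1 (29.5, 162 and 58.6), MTATP6P1 and ROMO1, a small mitochondrial membrane protein (38.2, 6.04 and 20.6). MTND4P12 (80.5, 321 and 122), AC131235.1 (16.0, 1.83 and 14.3), TMEM160 (13.8, 3.66 and 22.8), CCDC85B (25, 5.25 and 36.5) and MFSD3 (22.2, 6.24 and 37.2) followed. The transcripts of ROMO1, TMEM160, CCDC85B and MFSD3 had a GC content of 62.0% to 72.2%. Replicate 2 was an extreme in all 30 of the most variable genes, the highest in 7 and the lowest in 23. Among all 8742 genes it was the highest in 3204 and the lowest in 3441, and the 30 were picked by their spread.

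The steadiest genes matched within counting error. TEX261 had 93.2, 92.9 and 93.2 CPM, YWHAE, a 14-3-3 adaptor protein, had 569, 570 and 568, PDE4DIP had 11.2, 11.3 and 11.3, RMC1 had 27.7, 27.6 and 27.5, and SAP18, of a histone deacetylase complex, had 253, 254 and 252. They are the extremes of 8742 genes. Of genes often used as references, ACTB had 2392, 3082 and 3278 CPM and GAPDH 2383, 2681 and 3113, so both were lowest in replicate 1, while TUBB (2494, 3315 and 2701) was highest in replicate 2. B2M was lowest there. None of these 4 was as steady as YWHAE or EEF1A1.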

How the data were processed

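The authors deposited FPKM for each library and group means of CPM. The submitters' processing notes name the tools STAR 2.5.3, HTSeq, limma and edgeR and the builds hg38 and GRCh38.p7, without roles or parameters. The strand setting of the counting, and how reads with several places were counted, are not given in the sources used here. The quotient of mean CPM and mean FPKM was a whole length in bases (within 0.01) for 11398 genes, equal to the gene's end minus its start in GENCODE 29 for 8057 and within 5% for 10365, so the deposited FPKM divide by the gene with its introns. Whole reads (within 0.05) were recovered from FPKM and this length in 100% of values. From these reads CPM over each library's total and TPM over joined exons were computed (Python 3.11.15, pandas 2.3.3, numpy 2.4.6), and the steps were tested on simulated data. The 173 genes without FPKM (0.347% of deposited CPM) and 4 columns of other samples were left out. GC content and length are of the longest principal transcript.

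The 36 gene lists and the libraries were chosen with earlier results of these data known. Named genes are the 25 highest by CPM, the 15 highest by TPM, the 4 highest of each list, members near zero in each library (at most 6), all members of 3 lists (MLL-AF9 and HOX, receptors, transcription factors), the study's key genes, the 10 most and 5 least variable genes, and the 3 highest of each other gene type. Any other gene was named after its values were seen, and some genes that the rule names are not reported here. No test was made, since there is 1 group. The alternatives were another scaling, length, filter or gene type, and each library left out. No count test was run on the recovered reads for the same reason. Promoters are from the RefSeq table of GRCh38.p14, matched by symbol for 6250 genes.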

Additional observations from a re-analysis of the deposited data

How the results depend on the processing

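The share of reads in the 10 leading genes, the number of genes holding 50% of reads, the number at 100 CPM or more and the ribosomal protein share changed little with the scaling of the libraries, the filter on low values, the gene types, the authors' deposited group mean CPM, or the library left out. The median CV of 16.4% changed little with the scaling and the gene types. It was 17.9% over genes of at least 1 CPM and 14.9% over genes of at least 100 CPM. Leaving out each library in turn gave 4.29 to 4.53% for the 10 leading genes, 1046 to 1065 genes for 50% of reads, 2655 to 2674 genes at 100 CPM or more, and 4.63 to 5.10% for ribosomal proteins. The median CV moved more, to 11.9% without replicate 2 and 14.1% without replicate 3, and stayed at 16.4% without replicate 1. A CV over fewer libraries is not on a like footing with the one over all of them. For the shares of reads the measure of length mattered more than these settings, since dividing by length weighs short genes up. The share of the 10 leading genes was 7.94% by TPM over joined exons, 7.27% over the longest principal transcript and 11.3% by FPKM, and that of ribosomal proteins was 7.25%, 11.7% and 13.5%. Genes holding 50% numbered 658 by transcript TPM and 294 by FPKM, and genes at 100 or more FPKM numbered 90. The levels of the 36 named genes that were followed moved by less than 1 SD with the other scaling and with the authors' group mean CPM. A group mean does not show the scale of each library. On the authors' scale 1 read stood for 0.0540, 0.0468 and 0.0409 CPM in replicates 1, 2 and 3, against 0.0591, 0.0397 and 0.0442 here. That scale sets replicate 2 higher against the others, and levels and spreads per library were not followed on it. Leaving out 1 library moved ZFP36L1 from 0.419 to 0.251 CPM (without replicate 2), while CD14 ran from 1.02 CPM (without replicate 3) to 2.04 (without replicate 2). The ratio of chromosome 8, an alternative set added after seeing the data, ran from 1.82 (genes of at least 10 CPM) to 2.04 (protein-coding genes), and that of chromosome 13 from 1.52 to 1.67. No paired analysis was possible because there is 1 group and the results come from no test. Depth limits the genes near zero, where 1 read stands for 0.0397 to 0.0591 CPM.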
